A study of Danio rerio with 12 samples.

Results

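The change of the transcriptome between 48 and 72 hours post fertilization (hpf) was followed in zebrafish embryos labelled as mycn mutant. The comparison used 6 of the 12 RNA-seq libraries of the series, 3 from mutant embryos at 48 hpf and 3 from mutant embryos at 72 hpf, and every gene of the count table. The other 6 libraries, 3 per age from wild-type embryos of strain AB, entered the same model and served to test where the mutant change differed. Embryos of all groups were raised in Danieau buffer and total RNA was extracted with TRIzol. The labels give the tissue as embryonic cells and name no organ. The sources used here do not give the mutant allele, its background strain, or how many embryos or clutches went into a library. What a p-value measures is thus the spread between these samples alone, and that spread may be technical.

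Between these ages a zebrafish embryo hatches, its retina and gut develop further, and cells that had been dividing in the brain and eye leave the cell cycle. mycn encodes a basic helix-loop-helix transcription factor of the Myc family, which pairs with Max on DNA and is best known for driving growth, ribosome production and division in progenitor cells. Loss of one copy of its human counterpart causes Feingold syndrome 1, which can include a malformed gut. The age comparison asks which genes still changed, and by how much, in embryos carrying the mutation.

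The 6 mutant-labelled libraries held 14793715 to 17914459 counts. Values of single genes are given in CPM, the count relative to the library total after scaling by TMM factors, per library or as the mean ± SD of 3 libraries, and log2 fold changes are those of 72 over 48 hpf fitted by edgeR. In a principal component analysis of the 6 libraries the first axis, with 89.8% of the variance, divided them by age, and the second, with 3.74%, set 48 hpf replicate 3 apart, at -42.8 against 30.0 and 14.1 for the other two libraries of its group. Results were therefore also computed without that library. The biological coefficient of variation was 0.136 at 48 hpf and 0.0848 at 72 hpf. The make-up of the libraries differed with age: globin genes took 1.69 to 1.72% of the counts at 48 hpf and 0.122 to 0.187% at 72 hpf, ribosomal protein genes 11.2 to 12.2% and 5.58 to 5.99%, and mitochondrial genes 1.78 to 1.84% and 3.59 to 4.19%. The TMM factors followed the age as well, with 0.888 to 0.918 at 48 hpf and 1.12 to 1.15 at 72 hpf.

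mycn (ENSDARG00000006837) was present at both ages. Its level was 203, 212 and 251 CPM in the 48 hpf replicates and 158, 158 and 141 CPM in the 72 hpf replicates, without overlap (log2 change -0.54 with SE 0.12, adjusted p = 9.84e-04). With libraries scaled by their totals alone the change was -0.22 and no longer passed (adjusted p = 0.128). Wild-type embryos held 74.0 ± 14.9 CPM at 48 hpf and 77.2 ± 2.25 CPM at 72 hpf, so mycn RNA was higher, not lower, in the libraries labelled mutant, and the direction of every result rests on the labels. The difference between the mutant and the wild-type change of mycn did not pass (-0.60, adjusted p = 0.192).

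In all, 14785 of 21068 tested genes, 70.2%, changed between the ages in mutant-labelled embryos (edgeR quasi-likelihood test, adjusted p under 0.05). Of these, 7528 rose, 35.7% of the tested genes, and 7257 fell, 34.4%. At least 2-fold changes were called for 39.7% of genes, with 4586 higher (21.8%) and 3788 lower (18%). Large changes were mostly rises: 1146 genes rose and 325 fell at least 8-fold, and 299 rose and 38 fell at least 32-fold. With library totals alone 9688 genes rose and 5028 fell, so the share of rises among the called genes moved from 50.9 to 65.8%, and the median log2 fold change of all genes moved from -0.0037 to 0.32. Since the background share is this high, the gene lists below are described by how many members passed the 2-fold rule, by their medians and by their values, not by a count of calls alone.

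**Figure D1:**
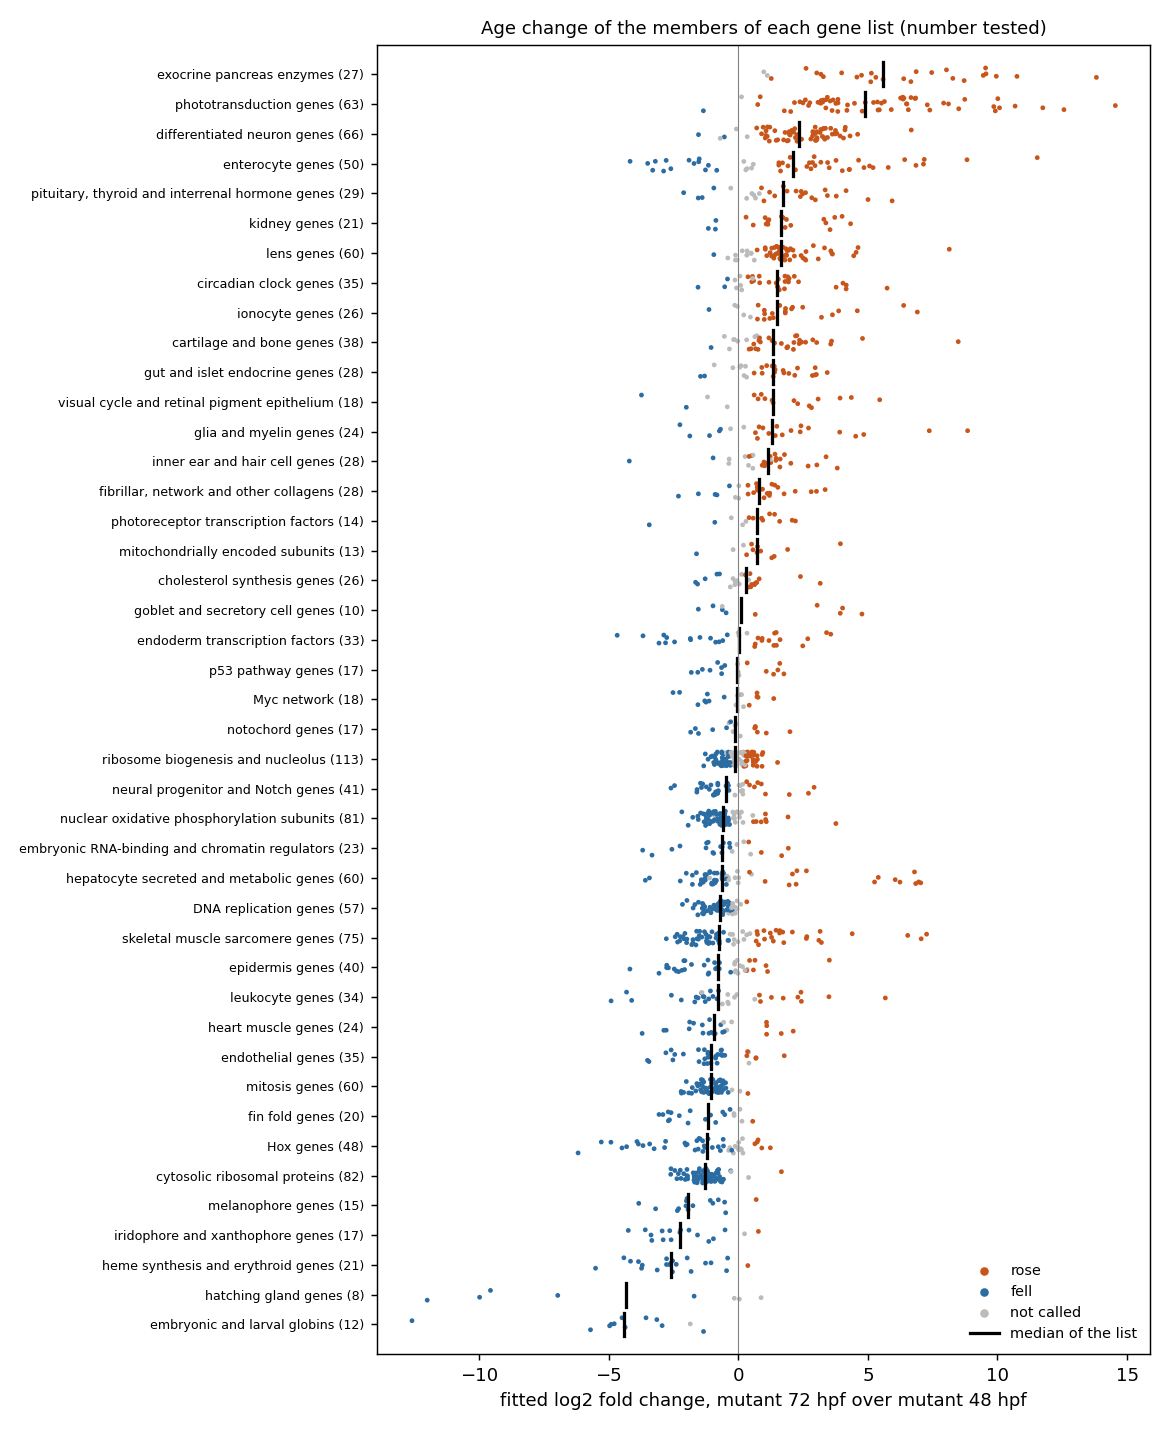
Fitted log2 fold change of 72 over 48 hpf in mutant-labelled embryos (horizontal axis) for each tested member of 43 gene lists (rows, number tested in brackets). Each point is a gene, orange where it rose, blue where it fell and grey where it was not called, and the black bar is the median of the list. The medians run from -4.42 for globins to 5.59 for enzymes of the exocrine pancreas.

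Genes of photoreceptors rose in nearly every member. Cone and rod photoreceptors capture light with opsins, pass the signal through transducin to a phosphodiesterase, and close a cyclic nucleotide gated channel. Of 63 tested phototransduction genes 61 rose, 59 of them at least 2-fold, and 1 fell (median log2 fold change 4.90). Their summed level was 486, 467 and 474 CPM in the 48 hpf libraries and 13073, 13789.9 and 13345 CPM in the 72 hpf libraries. In bulk RNA, more cells of a type and more RNA per cell cannot be told apart, and this holds for every list below. opn1sw1 (ENSDARG00000045677), the opsin of ultraviolet cones, stood at 0.253, 0.0719 and 0 CPM at 48 hpf and at 2555, 2943 and 2804 CPM at 72 hpf (log2 change 14.55 with SE 0.28, adjusted p = 4.99e-15). Only 5 reads of this gene were counted over the 3 libraries at 48 hpf, against 154140 at 72 hpf. The green cone opsin opn1mw1 rose from 0.105 ± 0.132 to 699.8 ± 60.9 CPM (log2 change 12.57 with SE 0.32, adjusted p = 5.70e-14) and the blue cone opsin opn1sw2 from 0.416 ± 0.0760 to 688 ± 49.2 CPM (log2 change 10.68 with SE 0.24, adjusted p = 1.64e-14). These opsins were close to the detection floor at 48 hpf in every library. gnb3b, the cone transducin beta subunit, rose from 0.682 ± 0.231 to 756 ± 69.5 CPM (log2 change 10.08 with SE 0.19, adjusted p = 4.99e-15). prph2b, a peripherin that shapes the discs of the outer segment, rose from 0.255 ± 0.118 to 258 ± 17.0 CPM (log2 change 9.92 with SE 0.20, adjusted p = 4.99e-15). Its partner copy prph2a had 2 reads over the 48 hpf libraries and 9713 over the 72 hpf libraries, a ratio of 4024 (95% counting interval 1114 to 33233). A further green opsin, opn1mw2, had 1 and 1662 reads, a ratio of 1377 (247 to 54426). The single fall was rcvrnb, a recoverin, from 9.86 ± 0.972 to 3.89 ± 0.667 CPM (log2 change -1.34 with SE 0.18, adjusted p = 4.26e-06). Neighbouring opsin genes are near-identical copies, so their reads may have been split or dropped by the counting.

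Regulators of photoreceptor fate had a smaller median change. Of 14 transcription factors 9 rose and 2 fell (5 up and 1 down at least 2-fold, median 0.74). crx, which switches on photoreceptor genes, stood at 42.0, 34 and 15.199 CPM at 48 hpf and 136, 125 and 124 CPM at 72 hpf (log2 change 2.08 with SE 0.28, adjusted p = 6.09e-06), and six7, a regulator of green cones, rose by 2.21 in log2 units (adjusted p = 4.93e-07). In both genes 48 hpf replicate 3 was the lowest library, and the ages did not overlap. rorb fell from 10.9 ± 1.801 to 1.000 ± 0.126 CPM (log2 change -3.43 with SE 0.23, adjusted p = 1.43e-09). In the visual cycle, which regenerates the chromophore in the pigment epithelium, 14 of 18 genes rose and 2 fell (11 up and 2 down at least 2-fold, median 1.32). rbp3, which carries retinoids between the cell layers, rose from 4.98 ± 1.21 to 221 ± 17.8 CPM (log2 change 5.46 with SE 0.15, adjusted p = 1.96e-13), and the isomerase gene rpe65a rose from 10.8 ± 2.23 to 164 ± 22.3 CPM (log2 change 3.93 with SE 0.20, adjusted p = 8.10e-11). Paralogs went opposite ways: rpe65b fell from 49.9 ± 5.66 to 12.4 ± 0.839 CPM (log2 change -2.00 with SE 0.13, adjusted p = 1.14e-09), and the retinol acyltransferase lrata fell by 3.73 while lratb.2 rose by 3.08 in log2 units (adjusted p = 3.28e-10 and 8.71e-07).

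Most tested lens genes rose, many of them transcripts of crystallins, the proteins that fill the fibre cells of the lens. Of 72 genes found for the lens list 60 passed the filter on low counts. Of these 49 rose, 48 at least 2-fold, and 1 fell (median 1.63). The count and median cover only genes that passed. Among those left out, crybb3 had 11 reads at each age, crygm4 had 6 at 48 hpf and 3 at 72 hpf, and crygm2b had 0 and 26. The sum of the list went from 12014, 14246 and 9061 to 28766, 29258 and 25889 CPM. crybgx rose from 0.948, 0.862 and 0.0608 to 189.5, 171 and 160.2 CPM in the 3 libraries of each age (log2 change 8.14 with SE 0.26, adjusted p = 6.88e-13). The gamma crystallin crygm2d11 rose from 18.1 ± 7.31 to 446 ± 50.7 CPM (log2 change 4.62 with SE 0.48, adjusted p = 3.33e-07), with all 48 hpf libraries far below those of 72 hpf. foxe3, a transcription factor of the dividing lens epithelium, fell by 0.94 (adjusted p = 0.00463). The crygm2d genes are a family of close copies, and values of single members are uncertain.

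**Figure D2:**
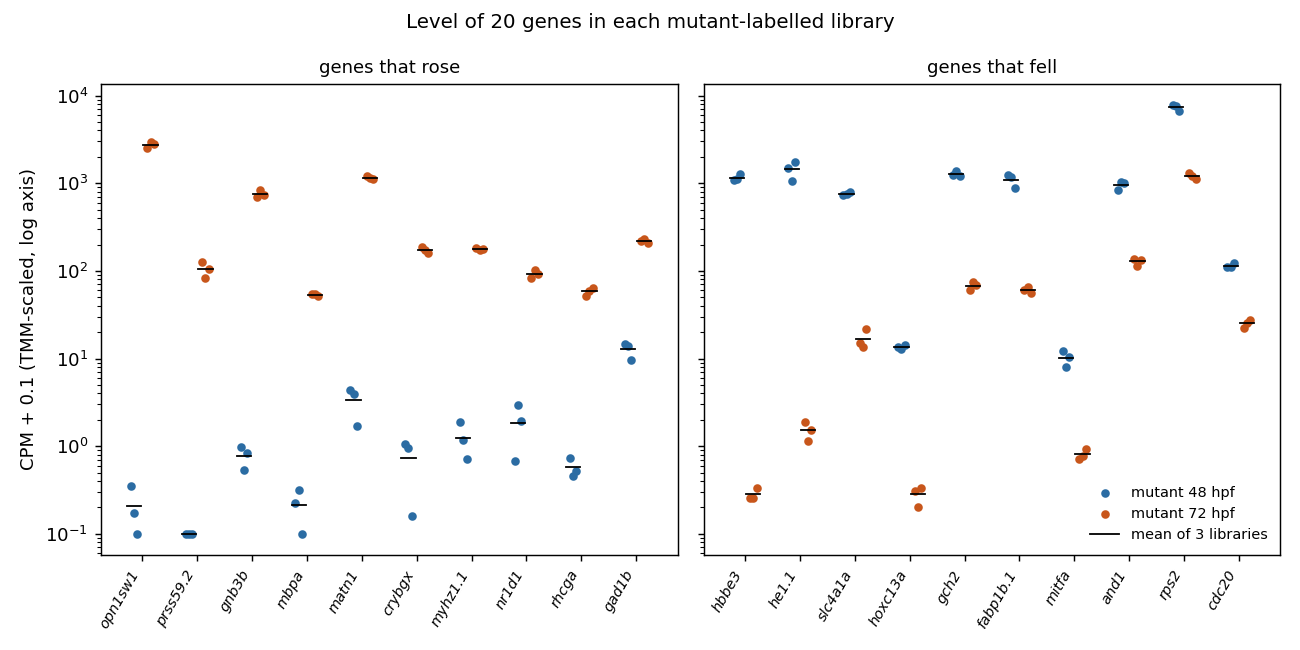
Level of 20 genes in each of the 6 mutant-labelled libraries, as CPM + 0.1 on a log axis, with 10 genes that rose on the left and 10 that fell on the right. Blue points are 48 hpf libraries, orange points 72 hpf libraries, and black bars the mean of 3 libraries. The 20 genes were picked from called genes with large changes. The ages do not overlap in any of them, nor in 74.2% of all tested genes. prss59.2 had 0 counts in all 48 hpf libraries.

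Genes of mature neurons rose and most genes of neural progenitors fell. Of 66 genes of differentiated neurons 61 rose, 58 at least 2-fold, and 2 fell (median 2.36), and the sum went from 2179.7, 1977 and 1685 to 9459, 9577 and 9759.8 CPM. gad1b, which makes the inhibitory transmitter GABA, stood at 14.5, 13.8 and 9.54 CPM at 48 hpf and 219, 231 and 211 CPM at 72 hpf (log2 change 4.13 with SE 0.17, adjusted p = 1.17e-11). grin1b, the obligatory subunit of NMDA glutamate receptors, rose from 10.4 ± 1.93 to 207 ± 4.04 CPM (log2 change 4.31 with SE 0.16, adjusted p = 4.00e-12). The ages were far apart in both genes. aldoca, an aldolase known from cerebellar Purkinje cells, and pvalb6, a parvalbumin, rose by 6.68 and 4.61 in log2 units (adjusted p = 6.96e-10 and 1.79e-12). The 2 falls were slc17a6a, a vesicular glutamate transporter, by 1.53, and elavl3, an RNA-binding protein of newborn neurons, by 0.54 (adjusted p = 1.07e-05 and 3.44e-04). The fall of elavl3 no longer passed under library totals alone.

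Among 41 genes of neural progenitors and Notch signalling 25 fell, 10 at least 2-fold, and 9 rose (median -0.47). Their summed level changed little, from 1912, 1946 and 1964 to 1851.5, 1900 and 1831 CPM. Their share of the unscaled counts rose from 0.176 to 0.211%, so the direction of the sum depended on the scaling. atoh1a, which specifies granule neurons and hair cells, fell from 12.02 ± 4.34 to 1.98 ± 0.391 CPM (log2 change -2.60 with SE 0.32, adjusted p = 1.83e-06). The Notch target her12 fell from 48.1 ± 4.52 to 8.71 ± 2.03 CPM and the Notch modifier lfng from 165 ± 17.7 to 54.6 ± 3.77 CPM (log2 fold changes -2.46 and -1.596, adjusted p = 9.69e-10 and 6.27e-10). Among the members that rose were the retinal homeobox gene rx1, from 7.03 ± 0.731 to 53.5 ± 5.27 CPM (log2 change 2.93 with SE 0.14, adjusted p = 4.90e-11), and the eye regulator pax6a, by 1.05 (adjusted p = 2.96e-07). Of 24 glial genes 17 rose and 5 fell (13 up and 3 down at least 2-fold, median 1.304). mbpa, the major protein of compact myelin, stood at 0.126, 0.216 and 0 CPM at 48 hpf and 54.3, 54.0 and 51.6 CPM at 72 hpf (log2 change 8.85 with SE 0.29, adjusted p = 1.03e-12). mag, another myelin protein, rose from 0.870 ± 0.510 to 19.8 ± 1.75 CPM (log2 change 4.53 with SE 0.30, adjusted p = 1.53e-09). The glutamate transporter gene slc1a2a, also on this list, rose from 0.260 ± 0.0618 to 44.2 ± 1.99 CPM (log2 change 7.37 with SE 0.21, adjusted p = 2.57e-13). Which cells express it was not tested. Of the proteolipid genes plp1b rose by 4.84 and plp1a fell by 1.87 (adjusted p = 3.78e-12 and 2.57e-08).

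In the inner ear list 19 of 28 genes rose and 2 fell (15 up and 1 down at least 2-fold, median 1.14). strc, a protein of the stereocilia links, rose from 0.419 ± 0.140 to 3.42 ± 1.14 CPM and otogl, of the membranes over the hair cells, from 1.04 ± 0.532 to 6.68 ± 0.386 CPM (adjusted p = 6.76e-06 and 9.53e-07). The summed level of the list went from 1242, 1224 and 966 to 528, 529 and 509 CPM, and the largest part of that sum was pvalb9, a calcium-binding parvalbumin, which fell from 936 ± 132 to 50.8 ± 4.503 CPM (log2 change -4.20 with SE 0.16, adjusted p = 3.61e-12).

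Digestive enzymes of the exocrine pancreas rose from levels near the floor. Acinar cells of the pancreas make proteases, lipases and amylase, which are secreted into the gut before feeding begins. Of 34 genes found for the list, 27 genes passed the filter on low counts, and 25 of these rose, all at least 2-fold, and 0 fell. Their median was 5.59, or 5.31 with genes absent at 48 hpf set to their lower bound. Genes of this list passed the filter through their level at 72 hpf, so the count says little about the list as a whole. The sum stood at 19.3, 16.7 and 21.1 CPM in the 48 hpf libraries and 658, 484 and 499 CPM in the 72 hpf libraries. prss59.2 (ENSDARG00000073742), a trypsin gene, had 0 reads over the 48 hpf libraries and 126, 83.5 and 104 CPM at 72 hpf, at least 1612-fold higher when set against a floor of 3 counts over the group. The elastase gene cela1.4 (698 reads at 72 hpf) and the astacin protease gene c6ast4 (398 reads) also had 0 reads at 48 hpf and were at least 193-fold and 109.9-fold higher. ctrb1, a chymotrypsinogen, had 3 reads at 48 hpf and 3055 at 72 hpf, a ratio of 844 (95% counting interval 288 to 4094). All 3 libraries of 72 hpf carried each of these transcripts. The trypsin and elastase genes lie in families of close copies, so the share of a single copy is uncertain.

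Transcription factors of the endoderm divided evenly, with 15 of 33 higher and 15 lower (10 up and 11 down at least 2-fold, median 0.03). The intestinal factor cdx1b stood at 1.14, 1.58 and 0.912 CPM at 48 hpf and 13.6, 16.4 and 12.8 CPM at 72 hpf (log2 change 3.57 with SE 0.19, adjusted p = 1.53e-10), and its copy cdx1a rose by 3.41 (adjusted p = 1.31e-07). hnf4g and nr1h4, the latter the bile acid receptor FXR, rose by 2.68 and 2.49 (adjusted p = 5.45e-06 and 1.81e-06). Those that fell included onecut3a, from 5.66 ± 0.198 to 0.214 ± 0.0837 CPM, hoxa13a of the hindgut and fin, from 8.05 ± 0.5998 to 0.612 ± 0.326 CPM, and gata4, from 6.77 ± 2.27 to 0.919 ± 0.419 CPM (adjusted p = 5.86e-09, 7.44e-09 and 3.47e-06). gata4 is a factor of the early endoderm and heart.

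The intestinal list held genes that rose and genes that fell steeply. Enterocytes line the gut and carry transporters and peptidases on a brush border of microvilli. Of 50 genes 31 rose, all of them at least 2-fold, and 14 fell (median 2.11). Brush border enzymes and transporters were among the rises. anpepb, an aminopeptidase, had 0 reads at 48 hpf and 20.2, 21.6 and 22.8 CPM at 72 hpf, at least 330.3-fold higher. slc5a1, the sodium glucose transporter, rose from 0.0848 ± 0.0919 to 13.3 ± 0.427 CPM (log2 change 7.15 with SE 0.39, adjusted p = 1.67e-10). fabp6, a carrier of bile acids, had 1 and 231 reads (ratio 191, 95% counting interval 34.02 to 7592). The falls included genes of lipid transport that the yolk syncytial layer of the embryo is also known to express. apoa1a, an apolipoprotein, stood at 7951, 10412 and 7045 CPM at 48 hpf and 921, 615 and 719.6 CPM at 72 hpf (log2 change -3.49 with SE 0.20, adjusted p = 3.18e-10). fabp1b.1, a fatty acid carrier, fell from 1099.6 ± 191 to 60.9 ± 4.49 CPM (log2 change -4.17 with SE 0.16, adjusted p = 5.71e-12), and dgat2, which makes triglyceride, from 41.1 ± 11.8 to 4.17 ± 0.594 CPM (log2 change -3.30 with SE 0.33, adjusted p = 1.62e-07). The sum of the list went from 13364, 16491 and 10624 to 2781, 2376 and 2535 CPM although more of its members rose. Whether the yolk cell or the gut supplied them was not tested.

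In the liver list more genes fell than rose. Of 60 genes of secreted and metabolic proteins 15 rose, 14 at least 2-fold, and 36 fell, 20 at least 2-fold (median -0.63). fabp10a, the fatty acid binding protein that marks hepatocytes in zebrafish, stood at 0.759, 0.862 and 0.486 CPM at 48 hpf and 53.8, 45.9 and 59.3 CPM at 72 hpf (log2 change 6.24 with SE 0.35, adjusted p = 2.00e-10). agxtb, which breaks down glyoxylate, rose from 1.202 ± 0.294 to 81.0 ± 1.87 CPM (log2 change 6.06 with SE 0.16, adjusted p = 1.04e-13), uox, urate oxidase, from 1.35 ± 0.572 to 56.4 ± 4.11 CPM (log2 change 5.40 with SE 0.21, adjusted p = 6.23e-12), and serpinf2a, an inhibitor of plasmin, from 0.116 ± 0.152 to 13.3 ± 2.43 CPM (log2 change 6.85 with SE 0.38, adjusted p = 2.15e-10). Transthyretin (ttr) had 3 and 448 reads (ratio 124, 95% counting interval 42.1 to 602). These genes were low at 48 hpf and present in all libraries at 72 hpf. The apolipoproteins apoa2 and apoa1b fell from 8646 ± 1335 to 1835 ± 355 CPM and from 8379 ± 1538 to 2088 ± 304 CPM (log2 fold changes -2.24 and -2.00, adjusted p = 1.61e-07 and 4.47e-08). At 48 hpf these 2 genes made up most of the list's sum, which went from 27863 ± 4924 to 10567 ± 651 CPM. Whether the yolk cell or the liver supplied them was not tested, so the fall of the sum cannot be read as a fall in hepatocytes. hp (ENSDARG00000095807), haptoglobin, which binds free haemoglobin, fell from 106 ± 17.1 to 8.89 ± 1.53 CPM (log2 change -3.58 with SE 0.23, adjusted p = 9.08e-10). A further gene of that symbol (ENSDARG00000051890) did not pass the filter, with 0 reads at 48 hpf and 13 at 72 hpf.

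**Figure D3:**
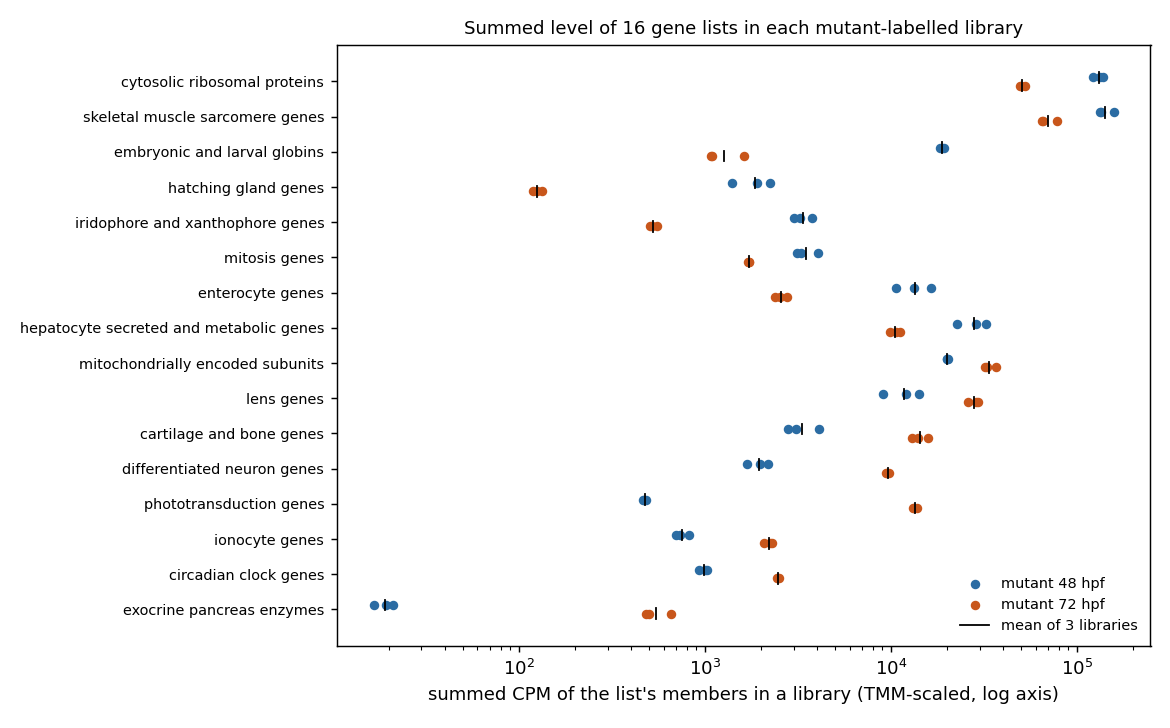
Summed level of 16 gene lists in each of the 6 mutant-labelled libraries, in CPM on a log axis. Blue points are 48 hpf libraries, orange points 72 hpf libraries, and black bars the mean of 3 libraries. The sum of the enterocyte list was lower at 72 hpf although 31 of 50 members rose and 14 fell. That of the hepatocyte list was also lower, and there 15 of 60 members rose and 36 fell. The sums of phototransduction and exocrine pancreas genes were higher in all 72 hpf libraries than in any 48 hpf library.

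Most endocrine genes of the gut and islets rose, and secretory cell genes went both ways. Of 28 gut and islet endocrine genes 19 rose and 2 fell (16 up and 2 down at least 2-fold, median 1.33). penka, proenkephalin, rose from 0.990 ± 0.675 to 10.4 ± 1.07 CPM (log2 change 3.43 with SE 0.35, adjusted p = 2.37e-07), and vip and ccka, a relaxing peptide of gut neurons and the meal hormone cholecystokinin, rose by 3.01 and 2.96 (adjusted p = 4.86e-06 and 1.20e-06). These peptides are also made in the brain. The islet genes slc30a8, a zinc transporter of insulin granules, and sst1.2, a somatostatin, fell by 1.46 and 1.301 (adjusted p = 4.65e-08 and 6.34e-06). Among 10 goblet and secretory cell genes 5 rose and 4 fell (4 up and 1 down at least 2-fold, median 0.09). The gel-forming mucin muc5.1 rose from 9.49 ± 0.349 to 78.3 ± 5.95 CPM (log2 change 3.04 with SE 0.11, adjusted p = 2.18e-12), muc5.2 from 2.80 ± 0.2496 to 43.1 ± 5.44 CPM (log2 change 3.94 with SE 0.16, adjusted p = 6.26e-12) and muc5.3 by 4.77 (adjusted p = 8.91e-08), while agr2, a disulfide isomerase that folds mucins, fell from 179.9 ± 6.31 to 91.6 ± 0.631 CPM (log2 change -0.97 with SE 0.13, adjusted p = 4.98e-06).

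Of 38 hormone genes found for the pituitary, thyroid and interrenal gland 29 passed the filter on low counts. Of these 19 rose and 4 fell (17 up and 3 down at least 2-fold, median 1.74), and the count covers only genes that passed. tg, thyroglobulin, the precursor of thyroid hormone, stood at 0.948, 0.503 and 0.730 CPM at 48 hpf and 52.6, 45.9 and 37.9 CPM at 72 hpf (log2 change 5.94 with SE 0.22, adjusted p = 2.59e-12). Growth hormone (gh1) rose from 0.851 ± 0.887 to 11.3 ± 0.776 CPM and oxytocin (oxt) from 0.482 ± 0.107 to 4.95 ± 1.04 CPM (adjusted p = 1.70e-07 and 1.09e-07). gnrh3, the reproductive releasing hormone of the forebrain, fell from 5.17 ± 1.09 to 1.96 ± 0.509 CPM (log2 change -1.39 with SE 0.37, adjusted p = 0.00321).

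Clock genes rose together. Of 35 genes 26 rose, 20 at least 2-fold, and 3 fell (median 1.51). nr1d1, the Rev-erb repressor of the clock, stood at 0.569, 2.87 and 1.82 CPM at 48 hpf and 82.3, 102 and 93.2 CPM at 72 hpf (log2 change 5.74 with SE 0.25, adjusted p = 1.44e-11), per1a rose from 1.39 ± 0.287 to 24.9 ± 2.96 CPM (log2 change 4.16 with SE 0.17, adjusted p = 7.97e-12), and the output regulators dbpa and dbpb rose by 4.04 and 4.17 (adjusted p = 1.61e-11 and 5.00e-11). arntl2 and arntl1b, activators of the clock, fell by 1.55 and 0.52 (adjusted p = 8.90e-09 and 0.00107), the second not under library totals alone. The labelled ages differ by 24 hours, and the sources used here give neither the hour of the day nor the light schedule at collection.

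Genes of salt and water balance rose as well. Ionocytes in the larval skin take up ions and excrete ammonia, and the pronephros filters and reabsorbs. Of 26 ionocyte genes 21 rose and 1 fell (19 up and 1 down at least 2-fold, median 1.48). The ammonia channels rhcga and rhcgb rose from 0.472 ± 0.142 to 58.1 ± 6.11 CPM and from 0.198 ± 0.190 to 16.9 ± 2.71 CPM (log2 fold changes 6.91 and 6.38, adjusted p = 2.28e-11 and 2.16e-10). The sodium pump subunit atp1a1a.4 stood at 17.1, 21.2 and 22.9 CPM at 48 hpf and 312, 307 and 278 CPM at 72 hpf (log2 change 3.87 with SE 0.15, adjusted p = 5.96e-12), and ca2, carbonic anhydrase, fell by 1.13 (adjusted p = 3.59e-07). Of 21 kidney genes 18 rose and 3 fell (16 up and 1 down at least 2-fold, median 1.67). The tubule transporters slc13a1, of sulfate, and slc12a3, of sodium chloride, rose from 0.318 ± 0.147 to 6.65 ± 1.90 CPM and from 1.51 ± 0.468 to 19.9 ± 2.55 CPM (adjusted p = 1.85e-08 and 4.86e-09). The falls were genes of the podocyte, the filter cell: wt1a by 1.15, wt1b by 0.88 and podxl by 0.86 (adjusted p = 2.75e-05, 0.00458 and 1.37e-05). The fall of wt1b did not pass under library totals alone.

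More muscle genes fell than rose. The sarcomere is built of myosin, actin and troponin, and fish replace embryonic forms of these proteins by later ones. Of 75 sarcomere genes 24 rose and 41 fell (19 up and 31 down at least 2-fold, median -0.73), and the sum went from 134720.0, 133530.0 and 157235 to 77979, 65035 and 66013 CPM. The fast myosin heavy chain myhz1.1 (ENSDARG00000102414; the symbol stands on more than 1 gene) stood at 1.77, 1.08 and 0.608 CPM at 48 hpf and 184, 174 and 176 CPM at 72 hpf (log2 change 7.27 with SE 0.20, adjusted p = 1.72e-13), and myhb rose from 1.42 ± 0.444 to 189 ± 16.4 CPM (log2 change 7.06 with SE 0.17, adjusted p = 3.34e-14). Among troponin I genes of fast muscle tnni2a.1 rose from 0.417 ± 0.102 to 38.9 ± 0.445 CPM while tnni2a.4 fell from 5176 ± 171 to 1022 ± 128 CPM (log2 fold changes 6.54 and -2.34, adjusted p = 3.02e-13 and 1.05e-09). tnnt3a, a troponin T, and ckma, the muscle creatine kinase, fell from 1539 ± 131 to 225 ± 9.23 CPM and from 9918 ± 929.7 to 1839 ± 308 CPM (adjusted p = 8.17e-10 and 1.48e-08). Myosin heavy chain genes are near-identical, and single copies are uncertain. Of 24 heart genes 16 fell and 5 rose (5 up and 11 down at least 2-fold, median -0.92). The natriuretic peptides nppa and nppb, hormones of the working heart muscle, fell from 29.5 ± 3.59 to 7.96 ± 1.01 CPM and from 4.32 ± 0.166 to 0.332 ± 0.215 CPM (adjusted p = 1.68e-06 and 7.30e-06). The cardiac myosin gene myh7 rose from 25.0 ± 0.449 to 79.1 ± 3.57 CPM (log2 change 1.66 with SE 0.14, adjusted p = 2.68e-08).

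Most cartilage genes rose. Of 38 cartilage and bone genes 29 rose, 21 at least 2-fold, and 1 fell (median 1.36). matn1, matrilin of the cartilage matrix, stood at 4.299, 3.88 and 1.58 CPM at 48 hpf and 1216, 1152 and 1111 CPM at 72 hpf (log2 change 8.49 with SE 0.44, adjusted p = 8.40e-11). The aggrecan gene acana rose from 4.15 ± 1.54 to 116 ± 10.4 CPM (log2 change 4.79 with SE 0.20, adjusted p = 8.60e-12) and the fibrillar collagen col11a2 from 75.8 ± 28.6 to 899.7 ± 129.7 CPM (log2 change 3.57 with SE 0.22, adjusted p = 4.93e-10). In col11a2 48 hpf replicate 3 was the highest of its group, and all 72 hpf libraries lay above it. Of 28 other collagens 20 rose and 5 fell (11 up and 2 down at least 2-fold, median 0.80). col17a1a and col7a1, which anchor the epidermis to its base, rose from 49.4 ± 15.9 to 401 ± 37.0 CPM and from 13.9 ± 3.33 to 63.7 ± 4.48 CPM (adjusted p = 1.14e-09 and 1.21e-09), and col1a1a fell from 3627 ± 408 to 1955 ± 346 CPM (log2 change -0.89 with SE 0.14, adjusted p = 2.62e-05).

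Markers of the fin fold fell. Of 20 genes 15 fell, 11 at least 2-fold, and 1 rose (median -1.17). and1, an actinodin of the rigid fibres of the fold, stood at 847, 1035 and 1006 CPM at 48 hpf and 138, 113 and 135 CPM at 72 hpf (log2 change -2.91 with SE 0.14, adjusted p = 3.79e-11), and the homeobox gene msx1b fell from 74.8 ± 3.02 to 9.003 ± 1.00 CPM (log2 change -3.06 with SE 0.10, adjusted p = 1.03e-12). Hox genes, which set position along the body axis, fell throughout the posterior paralog groups. Of 48 genes 31 fell, 26 at least 2-fold, and 5 rose (median -1.22). All 23 tested members of paralog groups 9 to 13 fell, and of 25 members of the other groups 8 fell and 5 rose, a division made after the values were seen. The 4 largest falls among members with an average log2 CPM of at least 0 were of paralog groups 12 and 13. hoxc13a stood at 13.3, 12.9 and 14.3 CPM at 48 hpf and 0.206, 0.103 and 0.236 CPM at 72 hpf (log2 change -6.18 with SE 0.22, adjusted p = 2.58e-12). hoxb13a, hoxc12a and hoxc12b fell by 4.91, 4.49 and 5.28 (adjusted p = 3.48e-10, 1.10e-10 and 3.12e-08). The rises were of paralog groups 3 to 5, with hoxd3a at 1.24, hoxb5a at 0.91, hoxc4a at 0.76 and hoxb4a at 0.73 in log2 units (adjusted p = 6.68e-08, 1.62e-06, 1.72e-05 and 7.80e-05). hoxb5b rose as well. No member of the most anterior groups, 1 and 2, rose, and hoxb1a, hoxb1b, hoxc1a and hoxa2b fell, as did hoxc3a of group 3. T-box gene tbx16l, of the early mesoderm, fell from 10.4 ± 1.07 to 0.197 ± 0.0543 CPM (log2 change -5.67 with SE 0.28, adjusted p = 6.08e-11), and mxra5b, named for matrix remodelling, by 5.85 (adjusted p = 6.00e-11).

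The notochord list divided evenly, with 6 of 17 genes higher and 6 lower (2 up and 3 down at least 2-fold). This was 35.3% each way, near the 35.7% higher and 34.4% lower of all tested genes. The median of the list, -0.12, changed sign, to 0.21, without 48 hpf replicate 3. The signal shha rose from 15.5 ± 3.98 to 25.9 ± 2.28 CPM and vwde fell from 90.6 ± 7.74 to 28.8 ± 1.96 CPM (adjusted p = 0.00118 and 1.49e-09). In the epidermis 23 of 40 genes fell and 7 rose (3 up and 17 down at least 2-fold, median -0.78). The embryonic keratin cyt1l fell from 4464 ± 541 to 536 ± 29.8 CPM (log2 change -3.06 with SE 0.26, adjusted p = 2.28e-08), and the calcium-binding ictacalcins icn and icn2 fell by 2.76 and 4.18 (adjusted p = 2.26e-08 and 2.71e-11). cdh1, the cadherin of epithelial junctions, rose from 52.9 ± 9.19 to 116 ± 6.43 CPM (log2 change 1.13 with SE 0.11, adjusted p = 2.12e-07).

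Genes of red blood cells fell steeply. Primitive erythrocytes fill with embryonic globin early and then shut down transcription as they mature. Of 12 tested globin genes 11 fell, all at least 2-fold, and 0 rose (median -4.42). Their sum stood at 18809.7, 19354 and 18427 CPM in the 48 hpf libraries and 1093, 1083 and 1630.3 CPM in the 72 hpf libraries. The embryonic beta globin hbbe3 (ENSDARG00000038147) fell from 1077, 1110.2 and 1261 to 0.155, 0.155 and 0.236 CPM (log2 change -12.59 with SE 0.42, adjusted p = 1.11e-12), with 53235 reads at 48 hpf and 10 at 72 hpf. hbbe1.2 fell from 3875 ± 52.3 to 124 ± 32.5 CPM (log2 change -4.96 with SE 0.28, adjusted p = 1.88e-10). hbae1.1 varied between the 48 hpf libraries, at 15.4, 31.5 and 65.1 CPM, and fell to 0.567, 1.34 and 1.89 CPM (log2 change -4.90 with SE 0.66, adjusted p = 5.67e-06). Globin copies are near-identical, so the division of reads among them is uncertain. Of 21 genes of heme synthesis and red cells 20 fell and 1 rose (0 up and 18 down at least 2-fold, median -2.61). slc4a1a, the anion exchanger band 3, stood at 735, 744 and 795 CPM at 48 hpf and 15.06, 13.4 and 21.7 CPM at 72 hpf (log2 change -5.51 with SE 0.19, adjusted p = 1.61e-12). alas2, the first enzyme of erythroid heme synthesis, fell from 361 ± 29.0 to 20.3 ± 4.43 CPM (log2 change -4.16 with SE 0.27, adjusted p = 1.30e-09) and the regulator klf1 from 12.7 ± 1.75 to 0.587 ± 0.126 CPM (log2 change -4.41 with SE 0.25, adjusted p = 2.32e-10). tal1, a blood and neuron transcription factor, rose by 0.37 (adjusted p = 0.00336).

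Leukocyte genes went both ways, with 17 of 34 lower and 9 higher (7 up and 14 down at least 2-fold, median -0.79). Lysozyme (lyz) fell from 7.75 ± 1.16 to 0.255 ± 0.0852 CPM (log2 change -4.91 with SE 0.35, adjusted p = 3.20e-09) and csf1ra, a receptor of macrophages and yellow pigment cells, from 23.4 ± 3.29 to 1.34 ± 0.363 CPM (log2 change -4.11 with SE 0.21, adjusted p = 8.75e-11). The cytokine gene il1b rose from 0.268 ± 0.142 to 13.7 ± 1.65 CPM (log2 change 5.68 with SE 0.31, adjusted p = 1.64e-10) and the macrophage perforin mpeg1.2 from 2.49 ± 0.412 to 13.4 ± 1.33 CPM (log2 change 2.44 with SE 0.29, adjusted p = 1.28e-06). Of 35 endothelial genes 28 fell, 18 at least 2-fold, and 5 rose (median -1.04). The scavenger receptors mrc1a and stab2 and the lymphatic marker lyve1b, shared by veins and lymphatics, fell from 72.1 ± 4.34 to 6.36 ± 0.480 CPM, from 44.3 ± 4.39 to 6.42 ± 1.44 CPM and from 11.9 ± 1.45 to 1.096 ± 0.393 CPM (adjusted p = 5.75e-11, 5.60e-10 and 5.07e-09). plvapa, of fenestrated vessels, rose from 2.56 ± 0.412 to 8.78 ± 0.976 CPM (log2 change 1.77 with SE 0.19, adjusted p = 3.60e-07).

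Hatching gland genes fell steeply. The gland's cells release the choriolytic proteases that dissolve the egg shell. Of 12 genes found for the list 8 passed the filter on low counts, and 5 of these fell, all at least 2-fold, and 0 rose (median -4.33). The count and median cover only genes that passed. Of those left out, he1.3 had 21 reads at 48 hpf and 0 at 72 hpf, and hce2l1 had 5 and 28. The sum of the list went from 1908, 1398 and 2250.5 to 134, 118.7 and 126 CPM. he1.1 (ENSDARG00000023656), the main hatching enzyme, stood at 1510.0, 1055 and 1746 CPM at 48 hpf and 1.81, 1.03 and 1.42 CPM at 72 hpf (log2 change -9.98 with SE 0.43, adjusted p = 1.44e-11). he1.2 fell from 235 ± 59.8 to 0.302 ± 0.289 CPM (log2 change -9.56 with SE 0.41, adjusted p = 1.29e-11). The symbol ctslb, a cathepsin of the gland, stands on more than 1 gene, and 2 of them were tested: one (ENSDARG00000074306) had 1391 reads at 48 hpf and 0 at 72 hpf, at least 559.6-fold lower, and the other (ENSDARG00000039173) fell from 20.9 ± 12.5 to 0.155 ± 0.155 CPM (adjusted p = 2.51e-07).

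Pigment cell genes fell. Melanophores make melanin, xanthophores pteridines and iridophores purine crystals. Of 15 melanophore genes 14 fell and 1 rose (0 up and 10 down at least 2-fold, median -1.94). mitfa, their master regulator, fell from 10.1 ± 2.14 to 0.705 ± 0.108 CPM (log2 change -3.84 with SE 0.27, adjusted p = 2.55e-09) and tyrp1a, of melanin synthesis, from 140.2 ± 24.7 to 15.4 ± 2.11 CPM (log2 change -3.19 with SE 0.15, adjusted p = 4.12e-11). Of 17 iridophore and xanthophore genes 15 fell and 1 rose (0 up and 13 down at least 2-fold, median -2.25). gch2, the first enzyme of pteridine synthesis, stood at 1242, 1388 and 1223 CPM at 48 hpf and 60.4, 74.6 and 68.5 CPM at 72 hpf (log2 change -4.24 with SE 0.13, adjusted p = 5.91e-13), and sprb, a sepiapterin reductase of the same pathway, fell from 26.7 ± 1.66 to 0.393 ± 0.158 CPM (log2 change -6.05 with SE 0.26, adjusted p = 1.40e-11).

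Genes of mitosis and DNA replication fell. Of 60 mitosis genes 57 fell, 32 at least 2-fold, and 1 rose (median -1.05, against -0.69 in wild type), and 0 of them passed the test of the difference between the genotypes. cdc20, an activator of the anaphase complex, stood at 109, 111 and 123 CPM at 48 hpf and 22.5, 25.6 and 27.13 CPM at 72 hpf (log2 change -2.19 with SE 0.11, adjusted p = 6.49e-11). birc5a, survivin of the chromosomal passenger complex, fell from 50.5 ± 4.07 to 10.99 ± 0.982 CPM (log2 change -2.20 with SE 0.14, adjusted p = 7.27e-10). Of 57 DNA replication genes 45 fell, 18 at least 2-fold, and 1 rose (median -0.70). rrm2 (ENSDARG00000020711), the regulated subunit of ribonucleotide reductase, stood at 83.5, 85.0 and 97.5 CPM at 48 hpf and 17.9, 22.0 and 19.9 CPM at 72 hpf (log2 change -2.15 with SE 0.15, adjusted p = 1.96e-09), and dut, which clears dUTP, fell from 139 ± 10.7 to 35.3 ± 2.39 CPM (log2 change -1.98 with SE 0.13, adjusted p = 9.37e-10). No member of these lists rose at least 2-fold. With library totals alone 50 mitosis and 34 DNA replication genes fell.

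Members of the Myc network moved in both directions. Of 18 genes 5 rose and 8 fell (1 up and 7 down at least 2-fold, median -0.06, or 0.27 under library totals). These were 27.8% and 44.4%, against 35.7% and 34.4% of all tested genes. mycla, a relative of mycn, fell from 42.8 ± 4.34 to 8.93 ± 0.542 CPM (log2 change -2.26 with SE 0.17, adjusted p = 5.70e-09), and mxd1, a partner of Max that opposes Myc, from 5.18 ± 0.356 to 0.906 ± 0.201 CPM (log2 change -2.52 with SE 0.25, adjusted p = 1.83e-07). max itself rose from 103 ± 7.55 to 170.4 ± 3.25 CPM (log2 change 0.72 with SE 0.09, adjusted p = 1.90e-06), and the repressors mnta and mntb, which also pair with Max, rose by 0.76 and 1.37 (adjusted p = 9.53e-06 and 8.78e-09). Of 17 p53 pathway genes 6 rose and 8 fell (5 up and 4 down at least 2-fold, median -0.03). The share that rose, 35.3%, was near the 35.7% of all tested genes, and the share that fell was 47.1% against 34.4%. The cell cycle inhibitor cdkn1a rose from 3.42 ± 1.09 to 8.74 ± 1.27 CPM (log2 change 1.36 with SE 0.22, adjusted p = 4.59e-05) and sesn1 from 33.5 ± 0.958 to 113 ± 9.47 CPM (log2 change 1.76 with SE 0.14, adjusted p = 1.38e-08), while ccng1, a cyclin induced by p53, fell from 1528 ± 152 to 435 ± 15.171 CPM (log2 change -1.81 with SE 0.11, adjusted p = 5.70e-10). Among embryonic regulators of RNA and chromatin 15 of 23 fell and 4 rose (2 up and 7 down at least 2-fold, median -0.62). lin28a and lin28b, which block let-7 microRNAs, fell from 12.9 ± 2.44 to 2.70 ± 0.343 CPM and from 4.23 ± 0.199 to 0.317 ± 0.124 CPM (adjusted p = 3.15e-07 and 4.85e-07), and hmga2, a chromatin protein of stem cells, fell from 111 ± 16.4 to 11.1 ± 2.14 CPM (log2 change -3.33 with SE 0.16, adjusted p = 3.65e-11). Its relative hmga1b rose from 38.4 ± 1.198 to 146 ± 7.82 CPM (log2 change 1.93 with SE 0.12, adjusted p = 6.29e-10).

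Ribosomal protein genes fell as a block. Of 82 genes of the cytosolic ribosome 79 fell, 63 at least 2-fold, and 1 rose (median -1.29, against -1.28 in wild type). Their sum stood at 133038, 137940.0 and 121942 CPM at 48 hpf and 49952, 52659 and 49699.8 CPM at 72 hpf, without overlap. rps2, of the small subunit, fell from 7802, 7668 and 6736 to 1308, 1214 and 1129 CPM (log2 change -2.60 with SE 0.13, adjusted p = 5.17e-11), and the stalk protein rplp0 from 6366, 6756 and 5506 to 1261, 884 and 936 CPM (log2 change -2.60 with SE 0.14, adjusted p = 1.94e-10). The single rise was rps8b, from 1.87 ± 0.273 to 5.98 ± 0.547 CPM (log2 change 1.67 with SE 0.22, adjusted p = 4.50e-06). With library totals alone 77 fell, with a median of -0.96. Genes of ribosome assembly and the nucleolus changed less. Of 113 genes 27 rose and 44 fell, but only 1 and 5 at least 2-fold (median -0.13). This division depended on the scaling, since library totals alone gave 44 higher and 18 lower with a median of 0.19. heatr1, of the small subunit processome, rose from 14.5 ± 1.23 to 41.4 ± 1.79 CPM (log2 change 1.52 with SE 0.10, adjusted p = 8.88e-10), and ncl, nucleolin, from 322 ± 9.61 to 609 ± 33.0 CPM (log2 change 0.92 with SE 0.11, adjusted p = 1.28e-06). bysl, which matures the small subunit, fell from 75.1 ± 8.72 to 29.8 ± 1.58 CPM (log2 change -1.33 with SE 0.11, adjusted p = 1.37e-08).

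Nuclear and mitochondrial genes of respiration moved apart. Of 81 nuclear genes of oxidative phosphorylation subunits 61 fell and 8 rose (5 up and 20 down at least 2-fold, median -0.60), with cox6a1, of cytochrome oxidase, falling from 359 ± 15.05 to 79.5 ± 3.33 CPM (log2 change -2.18 with SE 0.11, adjusted p = 4.93e-11). Of 13 subunits encoded in the mitochondrial genome 10 rose and 1 fell (4 up and 1 down at least 2-fold, median 0.72). mt-co1, the catalytic subunit of cytochrome oxidase, stood at 5037, 5309 and 5532 CPM at 48 hpf and 13381, 14015 and 14141 CPM at 72 hpf (log2 change 1.39 with SE 0.10, adjusted p = 5.07e-09), and mt-nd3 fell from 752 ± 110.5 to 246 ± 35.3 CPM (log2 change -1.61 with SE 0.14, adjusted p = 2.45e-08). Mitochondrial genes abut or overlap, and no source used here gives the counting's use of strand, so the division of reads among neighbours is uncertain. In cholesterol synthesis 12 of 26 genes rose and 5 fell (2 up and 3 down at least 2-fold, median 0.30). ldlra, the receptor that takes up lipoprotein, rose from 2.90 ± 0.0614 to 26.0 ± 2.65 CPM (log2 change 3.16 with SE 0.19, adjusted p = 4.54e-10), and hmgcra, the rate-limiting reductase, from 7.25 ± 1.604 to 38.3 ± 4.76 CPM (log2 change 2.4 with SE 0.16, adjusted p = 1.33e-09). fdps, which makes farnesyl diphosphate, fell from 118 ± 14.9 to 39.9 ± 1.69 CPM (log2 change -1.57 with SE 0.11, adjusted p = 2.79e-09).

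The age change of mutant-labelled embryos was close to that of wild type, which was estimated from other libraries in the same model. In wild type 70.8% of genes were called, 35.4% in each direction, and 40.8% at least 2-fold, with 21.9% higher and 18.9% lower. Of the mutant calls 88.4% were called in the same direction in wild type, and of the wild-type calls 87.6% in the mutant, with 35 genes called in opposite directions. Across genes, which are not independent replicates, the log2 fold changes correlated with Pearson's r of 0.927 and Spearman's rho of 0.931. A further 539 genes changed at least 2-fold in the mutant and were not called in wild type, and 607 the reverse, which does not show that they differed.

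**Figure D4:**
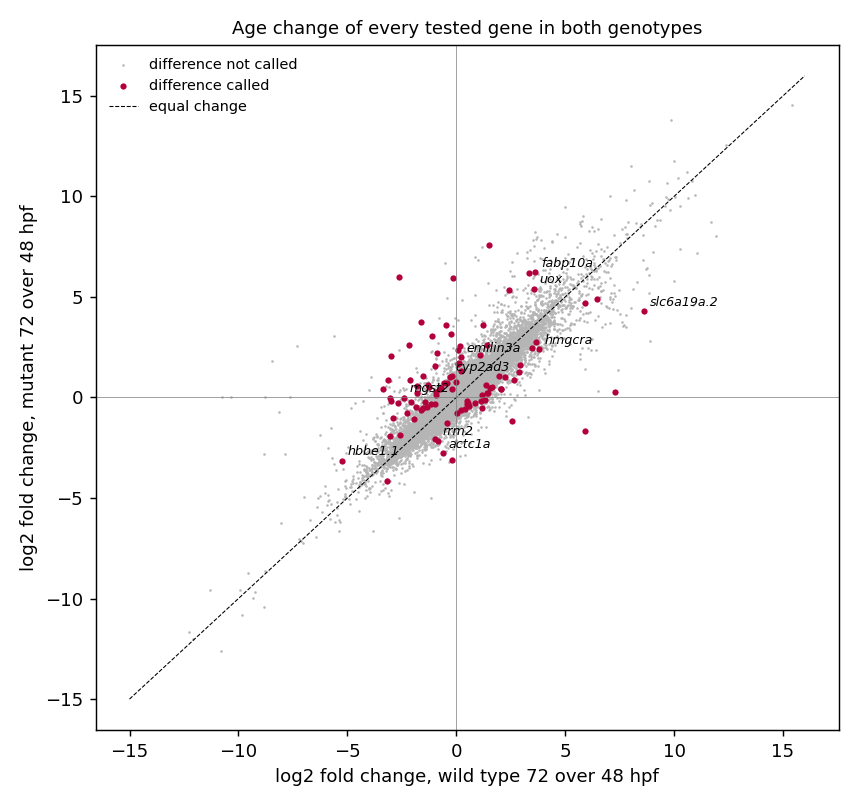
Fitted log2 fold change of 72 over 48 hpf in wild type (horizontal axis) and in mutant-labelled embryos (vertical axis) for each of 21068 tested genes. Red points are the 99 genes whose difference between the genotypes passed the test, and the dashed line marks equal change. Most genes lie along the line, and slc6a19a.2 and hmgcra, labelled among others, rose less in the mutant. At 72 hpf slc6a19a.2 was lower in the mutant, while hmgcra was close to wild type and had been higher at 48 hpf.

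The test of the difference itself called 99 genes, 0.47% of those tested: 60 with a more positive change in the mutant (0.285%) and 39 with a more negative one (0.185%). With library totals alone this balance turned, to 43 more positive and 73 more negative. Of the 99 main calls, 41 had fitted changes of opposite sign in the genotypes. The count rested on single libraries: it was 276 and 264 without wild-type 48 hpf replicates 2 and 3, and 23 to 54 without any one of wild-type 72 hpf replicates 1 to 3, mutant 48 hpf replicates 1 and 2, or mutant 72 hpf replicates 1 to 3. Single genes were followed in the alternative runs other than DESeq2, limma-voom and no filter. In all runs so followed the differences of cyp2ad3, slc6a19a.2 and rrm2 passed. Those of uox, dpp4, actc1a, hbbe1.1, hmgcra, mmp9, emilin3a and ddx21 lost the call in at least 1. Of the 99 calls, DESeq2 kept 99, no filter 98 and limma-voom 80. In the liver list 6 differences were positive. uox rose from 1.35 ± 0.572 to 56.4 ± 4.11 CPM in the mutant against 3.58 ± 1.08 to 42.4 ± 1.82 CPM in wild type (difference 1.85 on the log2 scale, SE 0.30, adjusted p = 0.0146). cyp2ad3, a cytochrome P450 gene on the chromosome of mycn, rose from 26.2 ± 2.39 to 53.7 ± 3.91 CPM against 43.8 ± 4.27 to 36.3 ± 0.231 CPM (difference 1.31, SE 0.14, adjusted p = 6.87e-04). In both genes the mutant mean was the lower at 48 hpf and the higher at 72 hpf. In the enterocyte list 4 differences were negative. slc6a19a.2, an amino acid transporter of the brush border, rose from 0.423 ± 0.266 to 8.58 ± 0.386 CPM in the mutant against 0.0421 ± 0.0365 to 19.1 ± 1.55 CPM in wild type (fitted difference -4.34, SE 0.70, adjusted p = 0.0146). Wild type held 2 reads of it at 48 hpf and 1076 at 72 hpf, a ratio of 466 (95% counting interval 129 to 3850.0), so the size of the fitted difference is uncertain. dpp4, a peptidase of the same membrane, rose from 4.68 ± 1.16 to 14.4 ± 0.820 CPM against 3.57 ± 0.270 to 27.05 ± 4.29 CPM (difference -1.29, adjusted p = 0.0263). Both ended lower in the mutant at 72 hpf.

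Single members of other lists differed too. rrm2 fell by 2.15 on the log2 scale in the mutant, and its wild-type change was -0.86 (difference -1.297, SE 0.20, adjusted p = 0.0122). The genotypes began at 88.7 ± 7.70 and 89.6 ± 20.5 CPM and ended at 19.9 ± 2.04 and 49.5 ± 1.599 CPM. The cardiac actin gene actc1a (ENSDARG00000076126), also on the chromosome of mycn, fell from 159 ± 24.8 to 23.2 ± 9.46 CPM against 84.3 ± 34.2 to 55.0 ± 2.29 CPM (difference -2.16, adjusted p = 0.0181). The globin hbbe1.1 fell from 1594 ± 687 to 181 ± 18.4 CPM against 6294 ± 1553 to 165 ± 32.7 CPM (difference 2.12, adjusted p = 0.0146), so the genotypes were apart at 48 and close at 72 hpf. hmgcra rose less in the mutant (difference -1.41, adjusted p = 0.0154), and so did the metalloproteinase mmp9, from 20.7 ± 3.51 to 50.2 ± 3.68 CPM against 10.1 ± 1.92 to 73.4 ± 21.4 CPM (difference -1.58, adjusted p = 0.0159). emilin3a, a matrix protein of the notochord, rose from 5.64 ± 1.87 to 22.6 ± 1.26 CPM against 18.1 ± 5.98 to 21.3 ± 2.89 CPM (difference 1.76, adjusted p = 0.0176). Of the ribosomal lists 0 of 82 ribosomal proteins and 1 of 113 biogenesis genes differed. That gene was ddx21, a nucleolar helicase, at 93.4 ± 7.89 and 75.5 ± 7.56 CPM in the mutant and 179 ± 14.5 and 90.1 ± 5.41 CPM in wild type (difference 0.68, adjusted p = 0.0483).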

How the data were processed

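The authors deposited one table of read counts per gene and library, unnormalized, with Ensembl gene identifiers paired with symbols. STAR, featureCounts, DESeq2 and build GRCz11 are named without version or role in the submitters' processing notes, and the counting's use of strand and of multiply mapped reads is not given in the sources used here. All 12 libraries (14793715 to 19732340 counts, n = 3 per group) entered one edgeR 4.0.16 quasi-likelihood model in R 4.3.3, with a coefficient per group, TMM factors and filterByExpr at a minimum count of 10, which kept 21068 genes. P-values were Benjamini-Hochberg adjusted over these genes and called under 0.05, with a second rule of at least 2-fold. The difference was the mutant age change minus the wild-type age change. A group at 0 counts was set to 3 counts for a lower bound, and groups of 1 to 3 counts were given exact 95% intervals. Intervals and bounds cover counting error only. Alternatives were library totals, no filter, DESeq2 1.42.0, limma-voom (limma 3.58.1), a replicate block, the 6 mutant libraries alone and each library left out. Genes were named by a fixed rule: mycn, the 12 largest rises and falls with an average log2 CPM of at least 2, up to 4 called members of each list in each direction with an average log2 CPM of at least 0, and the leading difference genes. Outside this rule, hoxb5b, hoxb1a, hoxb1b, hoxc1a, hoxa2b and hoxc3a were named to describe the Hox paralog groups, a division made after the values were seen. Also outside it, he1.3, hce2l1, crybb3, crygm4, crygm2b and a further hp gene were named as members that did not pass the filter. The members and lists were chosen with earlier results of these data known. Counts of the mutant-labelled 48 hpf and 72 hpf libraries differed within groups by more than sampling noise, so these were kept as separate replicates. The wild-type libraries were also kept as separate replicates, but this was not tested in them.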

Additional observations from a re-analysis of the deposited data

Results flagged for a closer look

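The values below are differences on the log2 scale between the age change of mutant-labelled embryos and that of wild type, singled out because the edgeR test of the difference passed. They are the 8 genes with the smallest p among those whose difference was called and up to 3 called members of each gene list, 22 genes in all. In 11 of them the call was lost in at least 1 alternative. DESeq2, limma-voom and no filter were not among the alternatives checked for single genes.

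Without a list were mgst2, a microsomal glutathione transferase, at 2.39, tmem176l.3a at 2.01, gmds, which makes GDP-fucose, at -1.22, and tnfaip2a at 1.303. A difference need not come with a change in the mutant. mgst2 stood at 5.71 ± 0.529 and 5.71 ± 0.824 CPM there and fell from 34.1 ± 2.88 to 6.47 ± 0.787 CPM in wild type. The mutant change of gmds did not pass either. The unnamed locus si:ch211-113d11.5 differed by 5.03, but its wild-type level at 48 hpf was uneven, at 79.1 ± 53.1 CPM. The fitted differences of si:dkey-169i5.4 and si:dkey-93m18.6 were 6.11 and 8.61, but their size is uncertain, since the mutant 48 hpf libraries held 2 and 0 reads. In the mutant the first went to 175 reads, a ratio of 72.5 (95% counting interval 19.8 to 603), and the second to 25 reads, at least 6.91-fold higher against a floor of 3 counts over the group. In the liver list cyp2ad3 differed by 1.31, uox by 1.85 and the coagulation factor gene f10 by 1.38. In the enterocyte list slc6a19a.2 differed by a fitted -4.34, with 2 wild-type reads at 48 hpf, the meprin gene mep1a.2 by -3.69 and dpp4 by -1.29. The globin hbbe1.1 differed by 2.12, the hatching enzyme relative hce2l2 by 3.99, the carbonic anhydrase ca15a by 1.18 and emilin3a by 1.76. The mutant change of hce2l2 did not pass, while wild type fell from 5.57 ± 2.18 to 0.634 ± 0.156 CPM. rrm2 differed by -1.297, actc1a by -2.16, hmgcra by -1.41, mmp9 by -1.58 and ddx21 by 0.68.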

How the results depend on the processing

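The count of genes changed with age held under every alternative. It was 13851 to 15269 with single libraries left out, 14632 with DESeq2, 14755 with limma-voom and 14701 with the 6 mutant libraries alone. Of the main calls 0 passed in the opposite direction in any of these. Which genes were called depended more on the scaling than the count did. Library totals alone gave 14716 calls but kept 12556 of the 14785 main calls in the same direction. Without 48 hpf replicate 3 the count was 14330. Scaling by library totals moved the 2-fold lower calls to 2512. It gave 43 positive and 73 negative differences, so that the negative ones became the more frequent. It also turned the medians of the Myc network (0.27), ribosome biogenesis (0.19), notochord (0.20) and p53 (0.30) lists and the age change of ddx21 (0.0201). With single libraries left out the notochord median ran from -0.294 to 0.212, the highest without mutant 48 hpf replicate 3, and was 0.209 in a fit of the mutant libraries alone without it, which was chosen after seeing the data. The p53 median ran from -0.210 without mutant 48 hpf replicate 3 to 0.0128 without mutant 72 hpf replicate 3. The cause was not tested. The 99 differences became 175 without a filter (111 positive, 64 negative) and 266 with DESeq2 (163 and 103). With single libraries left out they ranged from 23 to 276, from 16 to 172 positive and from 7 to 135 negative. Same-numbered libraries of the 2 mutant ages did not deviate together (correlations -0.033, 0.019 and 0.0075), and differently numbered ones gave -0.052 to 0.042. These are deviations from means of 3 libraries and cannot decide whether the numbers pair the libraries, which the labels do not say. A replicate block gave 14334 age changes and 44 differences, 29 positive and 15 negative. Of 307 named called genes 23 lost the call or turned direction in at least 1 alternative. DESeq2, limma-voom and no filter are left out of this count, since single genes were not followed there.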

Other observations

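Of the 99 genes whose age change differed, the genotypes were further apart at 48 hpf in 79 and at 72 hpf in 20. The mutant mean lay below wild type at 48 hpf in 62 and above it in 37. The median absolute gap between the genotypes was 0.933 on the scale log2(mean CPM + 0.5) at 48 hpf and 0.333 at 72 hpf. This description was chosen after the values were seen, and a 48 hpf gap enters the difference itself. The wild-type 48 hpf libraries also had the largest biological coefficient of variation of all groups, 0.200 against 0.0703 in wild type at 72 hpf. By the RefSeq gene table of GRCz12tu, 12 of the 79 difference genes with a placement lay on the chromosome of mycn, which holds 4.23% of 17413 placed tested genes. cyp2ad3, actc1a, gmds, tnfaip2a and mep1a.2 were among the 12. The background strain of the mutant is not given in the sources used here, and the part of strain differences linked to mycn was not tested.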
